A study of Homo sapiens with 2 samples.

Results

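The cells described here shared mRNA of a stress response. Each held at least 1 UMI (unique molecular identifier, which stands for 1 captured transcript) of DDIT3 and of at least 2 of the 4 genes ATF3, CHAC1, HRK and CEBPB. They number 345 of 13958 kept cells, 184 of 6385 in the library labelled WT and 161 of 7573 in the library labelled FKO. These members were selected on measured values of 5 genes, so the levels of those genes describe the choice and support nothing. Within each library they were set against the 5040 (WT) and 6202 (FKO) comparison cells, which held no UMI of ATF3, CHAC1, HRK or CEBPB. The cells between, 1161 and 1210, had some of the 4 genes but did not meet the rule.

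Both libraries were made at day 42 of serotonin neuron differentiation from WA09 (H9) human pluripotent stem cells. An EGFP reporter knocked in at TPH2, the gene of the enzyme that begins serotonin synthesis in the brain, was used to sort EGFP-labelled cells before capture with the 10x Genomics 3' kit (version 3). The group labelled WT has the genotype TPH2-EGFP knockin, and the group labelled FKO has the same knockin with a FOXA2 knockout. All cells thus come from 1 parental line under 1 reporter. By the paper, the knockout reporter line was made from an edited FOXA2 knockout line, so genotype cannot be told apart from the edited line or the library. Each genotype has 1 library, there are no replicates, and no test between cells or libraries was made.

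FOXA2 (ENSG00000125798), a transcription factor of the floor plate and the targeted gene, did not follow the labels by its mRNA. Over all kept cells its mRNA was at 4.31 CPM (UMIs of the gene scaled to the same total of all UMIs for each group, 95% counting interval 3.89 to 4.77) in the library labelled WT and at 22.7 CPM (21.6 to 23.9) in the library labelled FKO. Among members it was at 5.56 CPM (17 UMIs) and 29.4 CPM (86 UMIs). By the study's methods the knockout reporter line carries an indel that shifts the reading frame of FOXA2, a change that 3' counts cannot reveal. The mRNA alone thus does not settle the labels, and each library is called by its label throughout. The paper reports FOXA2 staining in WT but not in FKO cells of other cultures. It also reports higher synapse-associated genes in FKO cells, from these libraries. In comparison cells SYT1 stood at 3002 (FKO) and 2204 CPM (WT), and CHGB at 2351 and 1098 CPM. Both rest on the same labels and are no independent check of them. The labels name no clones. The libraries shared 6 barcodes among kept cells and 0 among members.

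A kept cell had at least 1000 UMIs from at least 500 genes, with at most 10% of them from mitochondrial genes. The members labelled WT had a median of 14730 UMIs and 4002.5 genes, and their comparison cells 12272.5 UMIs and 3655 genes. Among cells labelled FKO the gap in depth was wider, with medians of 13166 UMIs in members and 6805.5 in comparison cells. Summed over members this gave 3059446 (WT) and 2927102 (FKO) UMIs, so that 1 UMI in members stood for 0.327 and 0.342 CPM. The median mitochondrial share was lower in members, at 7.24% against 7.87% (WT) and 4.65% against 5.34% (FKO). Their median share of UMIs from ribosomal protein genes was higher, at 13.7% against 10.95% and 8.57% against 6.46%. What these differences in depth and quality add to the results was not tested, beyond the alternatives named further on.

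In the integrated stress response, kinases that sense unfolded protein, lack of amino acids, viral RNA or lack of heme phosphorylate the initiation factor eIF2. Most translation then slows while ATF4 is made, and ATF4 with its partners switches on genes for amino acid uptake and synthesis, for refilling of the cell's antioxidant stores, and for its own shutdown. DDIT3 encodes CHOP, a later factor of this response that in neurons is tied to the death program when stress persists.

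The 5 genes of the choice act at this later stage. ATF3 is a stress-induced factor of the ATF family and a classical mark of injured neurons, and CEBPB is a C/EBP factor that pairs with ATF4. ATF3 (ENSG00000162772) stood at 78.4 CPM in members labelled WT and 84.0 CPM in those labelled FKO, with at most 11 and 16 UMIs in a single cell. CEBPB (ENSG00000172216) stood at 89.6 and 50.9 CPM. CHAC1, which breaks down glutathione, was at 93.5 and 64.9 CPM (ENSG00000128965). HRK, a BH3-only protein of neurons that promotes apoptosis, was the scarcest of the 4 in both libraries by the number of members that held it, at 26.8 and 35.9 CPM (ENSG00000135116). DDIT3 (ENSG00000175197) was at 198 CPM in members and 29.95 in comparison cells labelled WT, and at 183 and 19.8 CPM in those labelled FKO.

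CHAC1 was found in 78.8% of members labelled WT and 72.7% of those labelled FKO, CEBPB in 77.7% and 64.6%, ATF3 in 59.2% and 60.9%, and HRK in 32.1% and 37.3%. Over all kept cells, CHAC1 had a UMI in 11.2% (WT) and 9.61% (FKO), and HRK in 3.43% and 2.24%. The commonest pair was CHAC1 with CEBPB, seen in 107 members labelled WT and 76 labelled FKO. It was the whole of the choice for 51 and 44 of them. ATF3 with HRK alone chose 3 members labelled WT and 16 labelled FKO. Most members lay just inside the rule: 112 in each library had exactly 2 of the 4 genes, 56 (WT) and 41 (FKO) had 3, and 16 and 8 had all 4. Just outside it were 432 (WT) and 277 (FKO) cells with DDIT3 and 1 of the 4 genes, and 60 and 120 cells with at least 2 of the 4 but no DDIT3 UMI. DDIT3 alone is common, with a UMI in 28.6% (WT) and 13.6% (FKO) of comparison cells.

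The UMIs of each cell were also divided at random. When the rule was applied to 1 part, 88 members (WT) and 62 members (FKO) were found, and levels were read in the other part. ATF3 was then at 117 CPM in members and 2.39 in comparison cells labelled WT (log2 ratio 5.61, interval 5.16 to 6.06), and at 118 and 3.995 CPM in those labelled FKO (4.88, 4.42 to 5.34). For CHAC1 the log2 ratios were 3.80 (WT) and 2.34 (FKO), for HRK 3.71 and 4.64, for CEBPB 4.75 and 2.88, and for DDIT3 3.07 and 3.55. Cells chosen on a gene in 1 part are high in it in the other, so these ratios describe each gene's own spread between cells and support nothing.

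Short stretches of promoter are shown for these genes because many targets of ATF4 and CHOP carry a composite element with the core TGATGNAA (N is any base), at which a C/EBP and an ATF protein bind as a pair. Both strands of the 250 bases before each start in the RefSeq promoter table (GRCh38.p14) were searched for these letters, which read TTNCATCA in the other orientation. They occur in 1104 of 35116 promoters (3.14%). By gene, 1061 of the 27305 in the table (3.89%) have them in at least 1 promoter. Of the 5 genes of the choice, all of which are in the table, 3 have a match: ATF3, CHAC1 and HRK. The match of ATF3 (chr1:212565196-212565243, + strand) lies 191 bases before 1 of its 2 starts, that of HRK (chr12:116881489-116881536, - strand) 75 bases before its start, and that of CHAC1 lies 209 bases before its start inside an annotated exon and is not shown. The regulators CEBPG (chr19:33374051-33374098, + strand, 42 bases before 1 of 2 starts) and JDP2 (chr14:75427986-75428021, + strand, 16 bases before 1 of 3 starts) and the ER gene HERPUD1 (chr16:56931946-56931993, + strand, 176 bases before the start) are shown beside them, since their levels in members are described further on. The stretches of CEBPG and JDP2 lie inside the annotated gene but outside annotated exons. Capitals mark the matched letters. A match is a description of the sequence and not a binding site.
ATF3: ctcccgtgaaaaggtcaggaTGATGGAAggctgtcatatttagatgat
HRK: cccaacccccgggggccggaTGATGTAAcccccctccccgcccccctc
CEBPG: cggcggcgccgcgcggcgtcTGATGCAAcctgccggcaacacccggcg
JDP2: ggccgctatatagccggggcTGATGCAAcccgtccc
HERPUD1: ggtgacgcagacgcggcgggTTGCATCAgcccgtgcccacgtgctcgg

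Genes were compared where they reached 20 CPM in members or comparison cells, and a gene was called higher or lower where its pooled CPM differed by at least 1.5-fold. Members labelled WT had 213 of 6040 genes called higher (3.53%) and 194 called lower (3.21%). Members labelled FKO had 426 of 7519 called higher (5.67%) and 160 called lower (2.13%). Of 5860 genes measured in both libraries, 140 were higher in both (2.39%) and 35 were lower in both (0.597%). The rule used this same contrast, so these shares are a background and nothing is read from them. The median log2 ratio over all genes was -0.06 (WT) and -0.02 (FKO), 39.1% and 47.5% of all genes lay above 0, and 283 and 482 genes passed the minimum through members alone. With the ratio of the median gene set to 1, the share of calls that were higher moved from 52.3% (213 and 194 genes) to 65.2% (255 and 136 genes) among cells labelled WT. With the minimum applied over all kept cells, a setting chosen after seeing the data, it was 37.0% (111 and 189 genes). Among cells labelled FKO it moved from 72.7% to 61.1% (243 and 155 genes) with that minimum and to 61.5% (576 and 360 genes) with equal weight per cell. Across all settings it lay between 34.5% and 84.4% (WT) and between 52.9% and 94.6% (FKO), so neither direction prevails throughout in cells labelled WT.

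A ranking was made among 2178 candidate genes by the smaller of their log2 ratios in the libraries, without the genes of the choice. The 12 highest are PHGDH, TRIB3, DDIT4, ATF5, SHMT2, PSAT1, MTHFD2, ANXA2, SLC3A2, BBC3, IFITM3 and NEAT1. The first 7 of them belong to the regulators of the stress response or to the synthesis of serine and 1-carbon units, lists that were written with earlier results of these data known. A candidate had to reach 50 CPM in members or comparison cells of each library. At that minimum PHGDH, TRIB3, DDIT4, ATF5, SHMT2, PSAT1, MTHFD2, BBC3 and IFITM3 passed through members alone in both libraries. ANXA2 did so in that labelled FKO and NEAT1 in that labelled WT, and SLC3A2 in neither. The minimum itself thus favours such genes, and the ranking is a description.

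**Figure D1:**
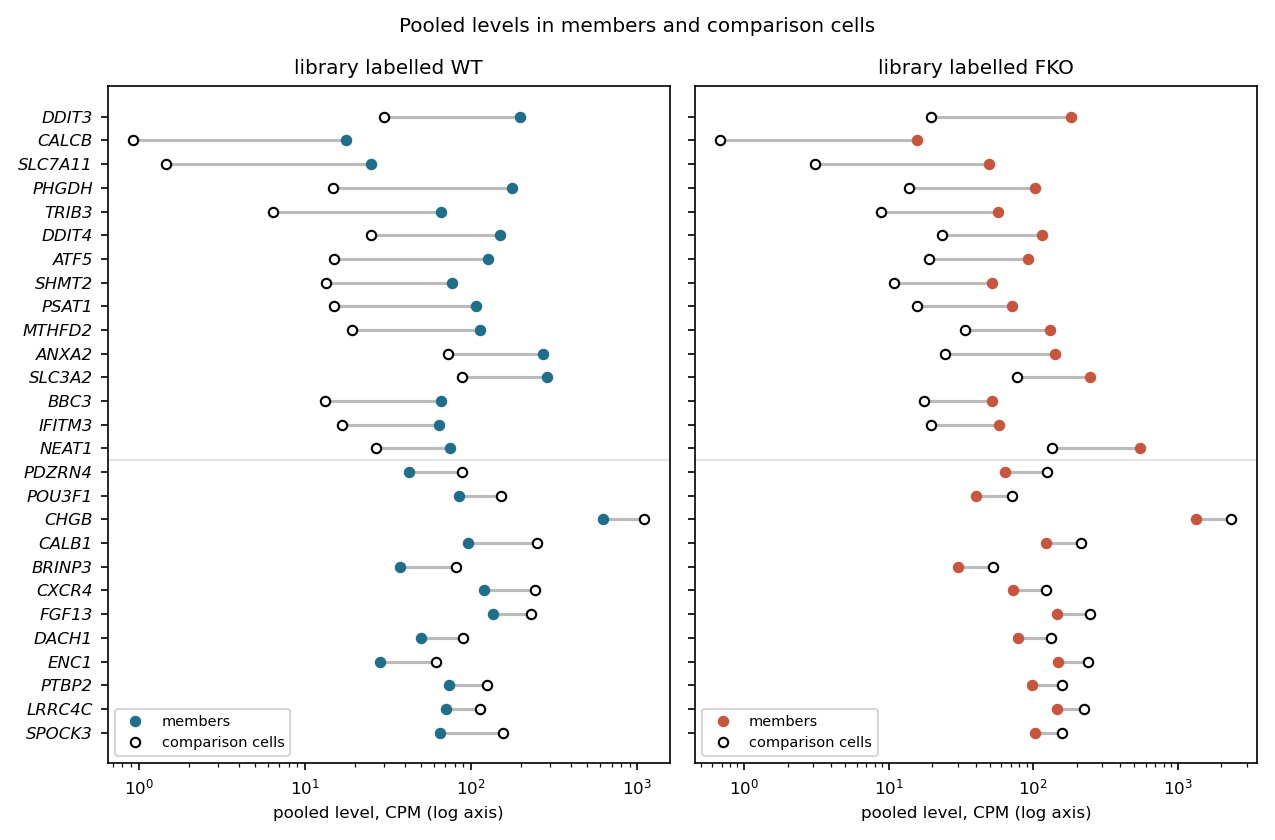
Pooled level (CPM, log axis) of the named genes in members (filled) and comparison cells (open) of each library. PHGDH stood at 176 against 14.8 CPM (WT) and 102 against 13.8 CPM (FKO), and CHGB at 618 against 1098 and 1342 against 2351 CPM.

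Regulators of the integrated stress response come first. Of the 17 on the list, 11 were measured above the minimum in cells labelled WT (3 through members alone) and 8 were higher, with a median log2 ratio of 1.15. Of 14 measured in cells labelled FKO (4 through members alone), 9 were higher and the median was 1.08, and no gene of the list was lower in either library. A gene that entered through members alone had to lie above 0, so the medians of lists with such genes are raised by the minimum itself and are given as a description. In the same way, a gene that entered through comparison cells alone had to lie below 0, which lowers medians. Genes of that kind, such as SLC6A4 and SPON1 in cells labelled WT, were not counted by list. Summed, the list held 1249 CPM in members and 527 in comparison cells labelled WT, and 1236 and 655 CPM in those labelled FKO. NUPR1, a small stress-induced chromatin protein, had 0 UMIs in members labelled WT and 4 in those labelled FKO.

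ATF4 mRNA, whose protein is controlled mainly through translation, was at 146 against 65.8 CPM (WT) and 155 against 84.4 CPM (FKO), log2 ratios of 1.15 and 0.87. Its paralog ATF5 was at 126 against 14.998 CPM and 92.6 against 18.9 CPM, ratios of 3.06 (2.89 to 3.24) and 2.29 (2.09 to 2.49). TRIB3, a pseudokinase induced by CHOP, reached 65.7 against 6.46 CPM (WT) and 57.1 against 8.81 CPM (FKO), ratios of 3.35 (3.10 to 3.59) and 2.70 (2.43 to 2.96). DDIT4, an inhibitor of growth signalling through mTORC1, stood at 149 against 24.97 CPM (WT) and 116 against 23.6 CPM (FKO), and SESN2, a leucine sensor, at 39.9 against 5.77 CPM and 57.1 against 11.2 CPM. EIF4EBP1, which blocks cap-dependent translation, was the most abundant of the list at 289 against 114 CPM (WT) and 156 against 63.8 CPM (FKO).

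PPP1R15A encodes GADD34, the subunit that directs phosphatase to eIF2, and stood at 108 against 51.3 CPM (WT) and 117 against 53.9 CPM (FKO). CEBPG, a partner of ATF4, was at 74.5 against 35.6 CPM and 103 against 47.8 CPM. JDP2, a repressor of the AP-1 family, was under the minimum at 16.02 against 3.56 CPM (WT) and 16.7 against 8.46 CPM (FKO). Among the kinases of eIF2, EIF2AK3 (PERK, the sensor of the ER) was at 17.7 against 6.38 CPM in cells labelled WT, under the minimum, and at 23.2 against 11.2 CPM in cells labelled FKO (log2 ratio 1.06). EIF2AK1, EIF2AK2 and EIF2AK4, which sense heme and mitochondrial stress, double-stranded RNA and lack of amino acids, had ratios between -0.13 and 0.18 in both libraries.

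Amino acid transporters were the next group. On this list of 12, 4 of 6 measured genes were higher in members labelled WT (3 of the 6 measured through members alone), with a median log2 ratio of 1.86. In those labelled FKO 5 of 8 were higher (3 through members alone), with a median of 1.38, and none was lower in either. The list's sum was 668 against 322 CPM (WT) and 906 against 506 CPM (FKO), and SLC43A1 had 0 UMIs in members of both libraries. SLC7A11 (ENSG00000151012), the cystine importer that feeds glutathione synthesis, was at 25.2 against 1.46 CPM (WT) and 49.5 against 3.11 CPM (FKO), log2 ratios of 4.11 (3.66 to 4.56) and 3.99 (3.66 to 4.33). It had a UMI in 27.7% of members and 1.61% of comparison cells labelled WT, and in 32.3% and 1.95% of those labelled FKO, at the median depths given above. SLC3A2, the shared heavy chain of this and other exchangers, was at 287 against 88.6 CPM and 246 against 77.3 CPM, and its partner SLC7A5, a carrier of leucine, at 39.5 against 9.76 CPM and 48.9 against 14.6 CPM. SLC1A5, a glutamine carrier, was at 45.1 against 4.88 CPM (WT) and 33.1 against 3.62 CPM (FKO). The glutamine carriers of neurons moved less: SLC38A1 had log2 ratios of 0.15 (WT) and 0.27 (FKO), and SLC38A2 of 0.48 and 0.24.

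Genes for the synthesis of serine, 1-carbon units, asparagine and proline entered the comparison nearly all through members, which by itself raises the median. Members labelled WT had 7 of 7 measured genes higher, 6 of them measured through members alone, with a median log2 ratio of 2.53. Those labelled FKO had 7 of 8 higher, with 7 measured through members alone, and a median of 1.503. The 14 genes of the list summed to 625 against 155 CPM (WT) and 519 against 182 CPM (FKO). PHGDH (ENSG00000092621), the first enzyme of serine synthesis from glucose, was at 176 against 14.8 CPM and 102 against 13.8 CPM, ratios of 3.57 (3.41 to 3.72) and 2.89 (2.69 to 3.09). PSAT1, the next enzyme of the route, followed at 108 against 14.95 CPM (WT) and 71.7 against 15.7 CPM (FKO), while PSPH, the last, had ratios of 0.90 and 0.68. In mitochondria, SHMT2 passes the carbon of serine to folate and MTHFD2 oxidises it. SHMT2 was at 76.8 against 13.3 CPM and 51.9 against 10.8 CPM, and MTHFD2 at 113 against 19.2 CPM and 131 against 34.0 CPM. The cytosolic counterparts SHMT1 and MTHFD1 were under the minimum, at 0.981 against 1.75 CPM and 11.4 against 10.6 CPM in cells labelled WT. ASNS, asparagine synthetase and a classical target of ATF4, was also under it, at 8.498 against 2.98 CPM (WT) and 10.9 against 5.76 CPM (FKO).

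PHGDH was spread over the members and not held by a few. It had a UMI in 72.3% of members and 12.8% of comparison cells labelled WT, and in 69.6% and 7.77% of those labelled FKO. With cells thinned to 2000 UMIs, the shares were 28.3% against 2.40% (WT) and 19.9% against 2.50% (FKO). This evens out the depth at which a gene is read, but members were still chosen at full depth. Comparison cells with fewer UMIs, 39 (WT) and 112 (FKO), were left out. TRIB3 behaved alike, in 48.4% against 7.88% and 48.4% against 6.59% of cells at full depth. In the divided UMIs PHGDH kept log2 ratios of 3.99 (WT) and 3.14 (FKO), and SLC7A11 of 4.54 and 4.35.

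The cytosolic tRNA synthetases, which charge tRNA with amino acids and include further targets of ATF4, were called in part. In members labelled WT 6 of 19 measured genes were higher (median log2 ratio 0.32, with 14 above 0), and in those labelled FKO 6 of 20 (median 0.46, with 18 above 0), with none lower. GARS1, the synthetase of glycine, was at 161 against 77.6 CPM (WT) and 230.3 against 109 CPM (FKO). WARS1, that of tryptophan, was at 36.3 against 22.1 CPM and 71.7 against 30.8 CPM. Those of histidine and lysine, HARS1 and KARS1, stayed near 0 on the log2 scale, with HARS1 at 0.05 (WT) and -0.16 (FKO) and KARS1 at 0.02 and 0.09. GARS1, IARS1 and AARS1 are the 3 of 16 matched synthetases whose promoter holds the letters TGATGNAA (18.75%, against 2.34% of all measured genes in the promoter table). The stretch around each of these matches overlaps an annotated exon, which for AARS1 belongs to another gene, DDX19B.

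Genes for ER chaperones and for the degradation of ER proteins were called in different numbers in the libraries. Members labelled WT had 2 of 20 measured genes higher (median log2 ratio 0.14), and members labelled FKO had 11 of 20 higher (median 0.60). Over all genes 3.53% (WT) and 5.67% (FKO) were called higher, and the difference between libraries was not tested. Without the single member with most of their UMIs, CRELD2, MANF and SEL1L lost their call in cells labelled FKO. The median labelled WT went as low as -0.05 across the alternatives. HERPUD1, a membrane protein of ER-associated degradation, was at 203 against 65.6 CPM (WT) and 180.04 against 71.6 CPM (FKO), and XBP1, a factor of the unfolded protein response, at 135 against 52.8 CPM and 98.4 against 40.5 CPM. These are the genes of the list that were higher in both libraries. HSPA5 (BiP), the main chaperone of the ER lumen, was at 161 CPM in both members and comparison cells labelled WT, while in those labelled FKO it was at 372 against 168 CPM. DNAJC3, an inhibitor of PERK, had ratios of 0.16 and 1.27, and SDF2L1, a part of BiP complexes, of 0.21 and 1.19. The most abundant gene of the list, HSP90B1, had ratios of -0.23 (WT) and 0.46 (FKO), and CALR of -0.34 and 0.41.

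Mitochondrial chaperones and proteases had 0 of 10 genes higher in members labelled WT (median log2 ratio 0.05) and 2 of 11 in those labelled FKO (median 0.27), with 1 measured through members alone in each. HSPA9, which draws proteins into mitochondria, was at 142 against 99.0 CPM (WT) and 219 against 126 CPM (FKO), and the protease LONP1 at 38.6 against 19.0 CPM in cells labelled FKO. Heat shock genes gave no general rise, with 1 of 12 (WT) and 1 of 11 (FKO) higher and medians of -0.18 and -0.07. The gene that was higher is HSPB1, a small heat shock protein of injured neurons, at 60.5 against 27.1 CPM and 44.8 against 20.2 CPM.

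Among secreted stress factors, GDF15 and VEGFA were the 2 measured genes of 10 and both were higher in both libraries, through members alone, with list medians of 3.99 (WT) and 3.65 (FKO). GDF15, a stress hormone that acts on the hindbrain to curb feeding, was at 38.9 against 0.669 CPM (WT) and 50.2 against 1.31 CPM (FKO), log2 ratios of 5.86 and 5.26. It came from few cells, with a UMI in 20 members labelled WT and 24 labelled FKO. A single member held 26.1% of the UMIs labelled WT and another 16.3% of those labelled FKO, and without that cell the ratios were 5.43 and 5.01. VEGFA, the growth factor of blood vessels, was at 39.9 against 9.22 CPM and 59.4 against 14.4 CPM. The list's sum was 90.9 against 11.7 CPM and 134 against 17.1 CPM. IL6 and CXCL8, inflammatory cytokines, had 0 UMIs in members of both libraries.

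Of the BH3-only and other pro-apoptotic genes, 1 of 6 measured (WT) and 2 of 7 (FKO) were higher, with medians of 0.07 and 0.15 and with 1 and 2 measured through members alone. BBC3, which encodes PUMA, was at 65.7 against 13.1 CPM (WT) and 52.3 against 17.6 CPM (FKO), ratios of 2.32 (2.09 to 2.54) and 1.57 (1.31 to 1.82). It was found in 58.2% of members and 14.1% of comparison cells labelled WT, and in 56.5% and 12.2% of those labelled FKO. PMAIP1, which encodes NOXA, was under the minimum at 9.81 against 0.304 CPM and 10.9 against 0.788 CPM, ratios of 5.01 and 3.79. The death receptor TNFRSF10B was at 27.7 against 7.92 CPM in cells labelled FKO. Genes that act downstream at mitochondria moved little: BAX had ratios of 0.38 and 0.48, and APAF1 of -0.02 and -0.21. None of the 3 measured anti-apoptotic BCL2 genes was called in either library, with list medians of -0.28 (WT) and -0.15 (FKO).

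Targets of p53 had 1 of 5 measured genes higher in members labelled WT (median 0.07) and 3 of 8 in those labelled FKO (median 0.44). GADD45A, a target that ATF4 also induces, was at 75.5 against 38.2 CPM (WT) and 69.7 against 21.7 CPM (FKO). CDKN1A (p21), an inhibitor of the cell cycle, was at 18.6 against 9.79 CPM in cells labelled WT, under the minimum, and at 57.1 against 9.05 CPM in those labelled FKO. MDM2, the feedback inhibitor of p53, had ratios of -0.04 and 0.31.

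AP-1 and immediate early genes had 3 of 5 measured genes higher in each library, with medians of 0.70 and 0.65. JUN, which axon injury induces through the kinases DLK and JNK, was at 177 against 43.8 CPM (WT) and 147 against 62.8 CPM (FKO), and was found in 72.8% against 27.9% and 64.6% against 26.1% of cells. JUND stood at 768 against 471 CPM and 593 against 377 CPM, and IER2 at 89.6 against 50.1 CPM and 52.6 against 32.7 CPM. FOS, a mark of dissociation and of activity, was at 28.8 against 29.6 CPM (WT) and 29.4 against 29.95 CPM (FKO). On the list of axon injury genes 0 of 10 measured genes were called in either library (medians -0.08 and -0.26), with 5 (WT) and 3 (FKO) of them above 0. GAP43, SOX11 and STMN2, which mark regrowing axons, had ratios between -0.41 and -0.22, and the factor KLF6 had 0.57 and 0.42.

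NRF2 targets, which answer oxidants, had 2 of 9 measured genes higher in members labelled WT (median 0.25) and 8 of 11 in those labelled FKO (median 0.76). NQO1, a quinone reductase, was at 20.6 against 6.40 CPM (WT) and 40.0 against 4.91 CPM (FKO). It was found in 21 members labelled WT, a single one of which held 19.0% of its UMIs, and without that cell its level was 16.9 CPM, under the minimum. In the library labelled FKO a single member held 25.6%, and the ratio was 2.61 without it in place of 3.03. FTL, the light chain of the iron store ferritin, was at 4012 against 1960.3 CPM and 6199.7 against 1513 CPM. A single member held 13.1% of the FTL UMIs of members labelled WT and another 17.7% of those labelled FKO, and without it the log2 ratios were 0.85 in place of 1.03 and 1.77 in place of 2.03.

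Autophagy and lysosome genes had 2 of 9 higher (median 0.39) in members labelled WT and 4 of 10 (median 0.33) in those labelled FKO. SQSTM1 (p62), a cargo receptor of autophagy, was at 115 against 54.0 CPM (WT) and 276 against 61.7 CPM (FKO). 1 member labelled FKO held 27.8% of its UMIs, and without that cell the ratio was 1.70 in place of 2.16. MAP1LC3B, which coats the forming autophagosome, was at 392 against 211 CPM and 427 against 233 CPM. Hypoxia and glycolysis genes had 0 of 11 (WT) and 0 of 13 (FKO) higher or lower, with medians of -0.24 and 0.35. Of 17 cholesterol synthesis genes, 1 was lower in members labelled WT (INSIG1, log2 ratio -0.79) and none was called in those labelled FKO, with medians of -0.38 and -0.19. Through members alone the minimum was passed by 1 (WT) and 3 (FKO) NRF2 targets, by 1 axon injury gene in cells labelled WT, by 1 p53 target, 1 hypoxia gene and 1 floor plate marker in cells labelled FKO, and by 1 mesenchymal marker in each. Among the called genes of all lists, those that lost their call without the single member with most of their UMIs were NQO1, COL3A1 and SLC17A8 in cells labelled WT and PSPH, MTHFD1L, CRELD2, MANF and SEL1L in cells labelled FKO.

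CALCB (ENSG00000175868), the gene of the neuropeptide beta-CGRP, was under the minimum but far apart between the groups, at 17.7 against 0.927 CPM (WT) and 15.7 against 0.687 CPM (FKO). Its log2 ratios were 4.25 (3.70 to 4.80) and 4.52 (3.85 to 5.2). It was found in 18 members labelled WT (9.78%, against 0.972% of comparison cells) and 25 labelled FKO (15.5%, against 0.322%). In cells thinned to 2000 UMIs the shares were 1.63% against 0.100% and 3.11% against 0.131%. Without the member that held most of its UMIs the ratios were 3.87 and 4.32. In the divided UMIs they were 4.37 and 5.5996. Its paralog CALCA (alpha-CGRP) had 3 and 6 UMIs in members. The 6 UMIs labelled FKO, against 0 in comparison cells set at the floor of 3 counts over the group, gave a log2 ratio of 5.08. That value leaves out the counting error of the 6 UMIs. No neuropeptide of the list of 20 was called in both libraries. The list had 1 higher (NMU, 50.7 against 24.5 CPM) and 1 lower (TAC1, 193 against 319 CPM) of 3 measured genes in cells labelled WT (median 0.39, the ratio of galanin, GAL, which was 0.06 without the member that held 21.7% of its UMIs), and 0 of 1 in cells labelled FKO (TAC1, 1157 against 1308 CPM, -0.18). CRH, the corticotropin-releasing hormone, was at 19.9 against 11.4 CPM and 18.1 against 6.46 CPM, under the minimum.

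The remaining genes among the 12 highest are of other kinds. ANXA2, a calcium-dependent membrane protein, was at 272 against 72.5 CPM (WT) and 142 against 24.5 CPM (FKO), and was found in 53.3% against 26.6% and 41.6% against 6.74% of cells. IFITM3, an antiviral membrane protein, was at 64.4 against 16.6 CPM and 58.4 against 19.7 CPM, from 24 and 35 members. With all cells thinned to 4000 UMIs before the rule its ratio was -1.37 in cells labelled WT, in place of 1.95, and 0.20 in cells labelled FKO, in place of 1.57, so it was called higher in neither. NEAT1, the long RNA of nuclear paraspeckles, was at 74.2 against 26.7 CPM (WT) and 549 against 135 CPM (FKO). A single member held 18.1% of its UMIs labelled WT, and the ratio was 1.19 without it in place of 1.48.

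The 140 genes higher in both libraries are 78.2% of the 179 genes measured in both that were higher in members labelled WT and 49.1% of the 285 that were higher in those labelled FKO. The 35 lower in both are 19.0% of 184 and 38.5% of 91. Over all genes measured in each library, 3.53% (WT) and 5.67% (FKO) were called higher and 3.21% and 2.13% lower. The higher genes include the 5 of the choice, which the rule made high, and genes that passed the minimum through members alone. These overlaps are thus a description. Leaving out the genes of the choice, 135 genes were higher in both, and 111 of them are in the promoter table. The letters TGATGNAA are in the promoters of 9 of these (8.11%), namely SLC1A5, CREB5, HERPUD1, GADD45G, CEBPG, GARS1, FGFBP3, MTHFD1L and IARS1. Of the genes lower in both, 24 are in the table and 1 has the letters (BRINP3, 4.17%), and of all measured genes 146 of the 6229 in the table (2.34%) have them. Of the 12 highest genes, 10 are in the table and 0 have them in this window, and CALCB, SLC7A11, SHMT2 and NEAT1 are missing from it.

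Serotonergic genes mostly had ratios below 0, with 1 of 12 (WT) and 1 of 14 (FKO) above it, but few passed 1.5-fold in the library labelled FKO. In cells labelled WT 6 of 12 measured genes were lower and none higher, with a median log2 ratio of -0.55, and in cells labelled FKO 1 of 14 was lower, with a median of -0.46. The 16 genes summed to 2398 against 3399 CPM (WT) and 2189 against 2865 CPM (FKO). TPH2 was at 169 against 205 CPM and 121 against 168 CPM, and FEV, the factor that maintains serotonin neurons, at 1176 against 1631 CPM and 715 against 942 CPM. DDC, the second enzyme of serotonin synthesis, stood at 169 against 281 CPM (WT) and 155 against 231 CPM (FKO). SLC6A4, the serotonin transporter, was at 4.58 against 22.5 CPM in cells labelled WT, a log2 ratio of -2.30, and at 31.1 against 46.1 CPM in those labelled FKO, -0.57. In cells labelled WT SLC6A4 passed the minimum through comparison cells alone, so its ratio there had to be negative. It was found in 6.52% of members and 19.7% of comparison cells labelled WT, but in 30.4% and 21.4% of cells labelled FKO, and in thinned cells (2000 UMIs) in 1.09% against 4.08% and 7.45% against 7.73%. SLC18A2, which loads vesicles with serotonin, had ratios of -1.04 and -0.47, and GCH1, which makes the cofactor of TPH2, of -0.95 and -0.45.

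A TPH2 UMI was found in 68.5% of members and 72.6% of comparison cells labelled WT, and in 58.4% and 53.5% of those labelled FKO. In cells thinned to 2000 UMIs these shares were 26.6% against 28.8% and 21.7% against 24.6%, and these differences were not tested. For GATA3, a factor of serotonin neurons, the thinned shares were 44.6% against 68.3% (WT) and 52.2% against 76.4% (FKO), for DDC 25.5% against 42.3% and 17.4% against 36.0%, and for FEV 77.7% against 90.6% and 64.0% against 77.3%. At this thinned depth these 3 genes were each found in a smaller share of members in both libraries. At full depth FEV was found in 96.7% of members and 98.1% of comparison cells labelled WT. In those labelled FKO it was in 92.5% and 91.5%, the other way. Free RNA of other cells can give such UMIs, no kept cells known to lack TPH2 were set apart, and its part in these shares was not tested. With the comparison made among cells with a TPH2 UMI alone, 126 members labelled WT and 94 labelled FKO, the median of the regulators was 0.79 in place of 1.08 in cells labelled FKO.

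Mature neuronal markers had 0 of 11 genes higher and 2 lower in members labelled WT (median -0.31) and 0 higher and 1 lower of 12 in those labelled FKO (median -0.25). CHGB, a granin of dense-core vesicles, was lower in both, at 618 against 1098 CPM and 1342 against 2351 CPM, ratios of -0.83 (-0.90 to -0.76) and -0.81 (-0.86 to -0.76). INA, an intermediate filament protein, was at 311 against 478 CPM (WT) and 663 against 884 CPM (FKO), while NEFL, the light neurofilament chain, had ratios of 0.00 and 0.01. Of 13 presynaptic genes 1 was lower in members labelled WT (CPLX2, a complexin that clamps vesicle fusion, at 58.2 against 132 CPM), and of 15 none was called in those labelled FKO, with medians of -0.29 and -0.19. SYT1, the calcium sensor of release, was the most abundant, at 1512 against 2204 CPM and 2039.6 against 3002 CPM.

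The 12 lowest genes are PDZRN4, POU3F1, CHGB, CALB1, BRINP3, CXCR4, FGF13, DACH1, ENC1, PTBP2, LRRC4C and SPOCK3. The 50 CPM of the ranking was reached through comparison cells alone by BRINP3 in both libraries. The same holds for PDZRN4, DACH1 and ENC1 in that labelled WT and for POU3F1 in that labelled FKO. Ratios of genes that passed in this way had to be negative. CALB1, the calcium buffer calbindin, was at 95.4 against 249 CPM (WT) and 123 against 214 CPM (FKO). PDZRN4, a PDZ protein, was at 42.2 against 88.5 CPM and 63.9 against 124 CPM. CXCR4, a chemokine receptor of migrating neurons, stood at 119 against 242 CPM and 72.1 against 122 CPM. FGF13, a partner of sodium channels, was at 136 against 229 CPM and 146 against 246 CPM, and the transcription factor POU3F1 at 84.7 against 150.3 CPM and 40.3 against 71.7 CPM. Several of these genes are also leading genes of clusters with few members in the library labelled WT, such as CHGB, DACH1 and CXCR4 in cluster 2 (6 of 1491 cells are members) and CALB1 in cluster 3 (3 of 931).

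Cells were also grouped by how many of the 4 genes were found. This number is the rule's own measure, so the values by group are a description and support nothing. The 43 genes of the lists of regulators, transporters and serine and 1-carbon synthesis were summed. Their level was 1004 CPM in comparison cells, 1234 in cells with DDIT3 and 1 of the 4 genes, and 2028, 3327 and 3867 CPM in members with 2, 3 and 4 of them in the library labelled WT. The library labelled FKO gave 1343, 1829, 2448, 3046 and 4404 CPM. Cells with at least 2 of the 4 genes but no DDIT3 UMI lay under the members, at 1369 (WT) and 1781 CPM (FKO). PHGDH followed the same order, at 14.8, 39.5, 122, 261 and 304 CPM (WT) and 13.8, 51.6, 93.8, 116 and 188 CPM (FKO). CHGB went the other way, from 1098 over 897, 685 and 563 to 276 CPM, and from 2351 over 1786, 1463 and 1074 to 663 CPM. FEV went down by class as well, from 1631 CPM in comparison cells to 1063 CPM with 3 genes (WT) and from 942 to 642 CPM (FKO). TRIB3 went up through all groups, from 6.46 to 156 CPM (WT) and from 8.81 to 129 CPM (FKO), as did DDIT4 and HERPUD1, and SYT1 went down from 2204 to 1057 CPM and from 3002 to 465 CPM. Some genes broke such an order in 1 library, a difference that was not tested. TPH2 was at 205, 171, 182, 128 and 214 CPM (WT) and at 168, 149, 125, 122 and 39.6 CPM (FKO, 4 UMIs in the last group). PSAT1 was at 14.95, 21.6, 81.6, 139.5 and 202 CPM (WT) and at 15.7, 41.2, 73.6, 68.1 and 59.4 CPM (FKO). SLC7A11 was at 1.46, 3.14, 20.5, 20.8 and 78.2 CPM (WT) and at 3.11, 9.20, 42.4, 73.8 and 29.7 CPM (FKO, 3 UMIs in the last group). The groups with all 4 genes hold 16 and 8 cells, and without them the values of the summed lists, PHGDH, CHGB and FEV keep their order, as do those of TRIB3 and SYT1.

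HSPA5 showed such an order in the library labelled FKO, at 168, 204, 273 and 406 CPM for 0 to 3 genes, and 2217 CPM in the 8 cells with all 4. A single member held 9.92% of the HSPA5 UMIs of all members labelled FKO, and without it their level was 337 CPM in place of 372. Among cells labelled WT it stayed between 151 and 184 CPM over all classes, and this difference between libraries was not tested. VIM went from 568 to 1632 CPM with 3 genes in cells labelled WT, and to 3904 CPM in the 16 cells with 4, while the library labelled FKO gave 808, 1370.2, 1832, 1429.6 and 2138 CPM. By single genes of the choice, the summed lists were at 2901 CPM in members with an ATF3 UMI and 2059 CPM in those without (WT), and at 3071 and 2128 CPM (FKO). For HRK these values were 2864 and 2403 CPM (WT) and 2762 and 2610.2 CPM (FKO). For CEBPB they were 2750.2 and 1958 CPM (WT) but 2642 and 2696 CPM (FKO), and for CHAC1 they were lower with it in both, at 2514 and 2679.6 CPM (WT) and 2607 and 2818.5 CPM (FKO).

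**Figure D2:**
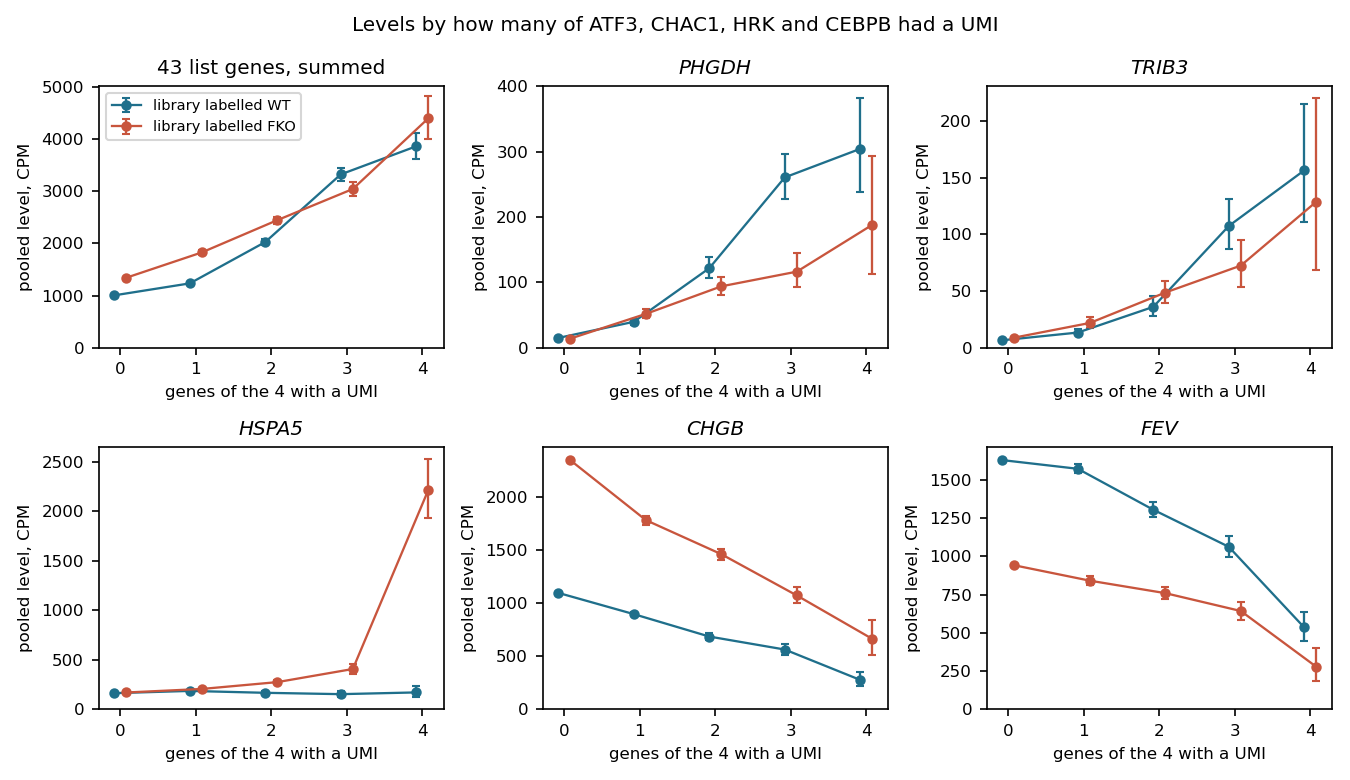
Pooled level (CPM, with exact 95% intervals of counting) by the number of ATF3, CHAC1, HRK and CEBPB found (0 to 4, with DDIT3 asked for from 1 upward) in each library, for the summed lists, PHGDH, TRIB3, HSPA5, CHGB and FEV. The summed lists go from 1004 to 3867 CPM (WT) and from 1343 to 4404 CPM (FKO), and CHGB goes from 1098 to 276 and from 2351 to 663 CPM.

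Taken cell by cell, the same 43 genes made up a median of 0.248% of the UMIs of members and 0.0962% of those of comparison cells labelled WT, and 0.293% and 0.128% in the library labelled FKO. Cells between had medians of 0.104% and 0.144%, close to the comparison cells. Of the members, 67.4% (WT) and 65.2% (FKO) lay above the 95th percentile of comparison cells. At the other end, 17 members labelled WT (9.24%) and 8 labelled FKO (4.97%) lay below the median of comparison cells.

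**Figure D3:**
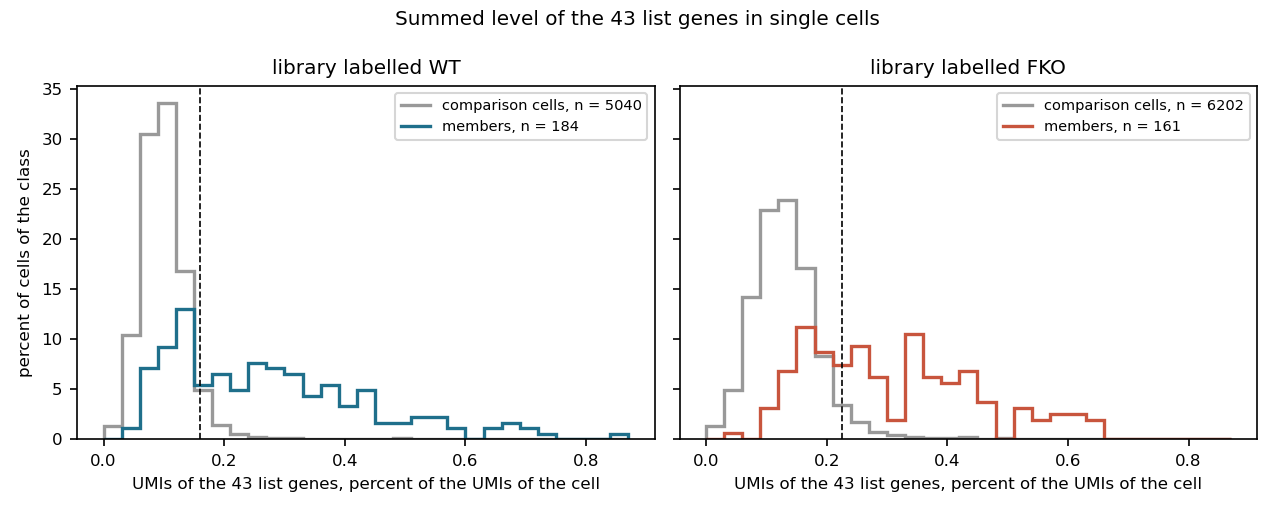
Percent of cells (vertical axis) by the share of their UMIs from the 43 list genes (horizontal axis, percent) for members and comparison cells of each library, with a dashed line at the 95th percentile of comparison cells (0.1601% WT, 0.225% FKO). Members are spread widely to the right, with medians of 0.248% and 0.293% against 0.0962% and 0.128%.

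In expression space, built without the genes of the choice, members lay near each other. Of the 15 nearest neighbours of a member, a mean of 28.5% (WT) and 20.5% (FKO) were members, against 1.13% and 1.03% for comparison cells. Over all kept cells the mean was 2.38% (WT) and 1.88% (FKO). At least 1 member was a neighbour of 78.3% and 79.5% of members, and of 12.5% and 10.7% of comparison cells. Cluster 4 of the library labelled WT held 117 of its 184 members (63.6%) with 14.1% of all kept cells, and its leading genes include SLC17A8, COL5A2, RALYL, GATA2, PHGDH and JUN. Members made up 13.0% of that cluster. In the library labelled FKO they were divided more, and clusters 1, 9, 10 and 8 held 43, 33, 25 and 20 members. Clusters 9 and 10 had the largest shares of members there, 13.5% and 13.0% of their cells, and cluster 9 was shallow, with a median of 3065.5 UMIs. Leading genes of cluster 9 include ATF3, DDIT3, SESN2, CDKN1A, PHGDH and BBC3, and those of cluster 1 include STC1, CRHBP, VGF and MAOB. Cluster 10 is led by SPARCL1, ID3, SULF1, GDF15 (57.9 against 1.39 CPM in other clusters) and SPON1, and cluster 8 by OGN, COL1A2 (1359.5 against 3.90 CPM) and PRRX1. In the library labelled WT, cluster 1 (STC1, GAL, VGF and FOS) held 23 members, 1.47% of its 1569 cells. Cluster 7 there (MKI67, TOP2A, HES1, SHH and LUM) held 20 members, 7.52% of its 266 cells. Cluster 8 (MAB21L1, OTP, LHX5-AS1) held 9, 7.38% of its 122 cells. Members thus lay in clusters with different leading genes, and the part of each cluster in the pooled ratios was not tested.

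Markers of other cell types were read as whole lists. Progenitor and cycling genes had 2 of 3 measured genes higher in members labelled WT and 5 of 6 in those labelled FKO (3 through members alone), with medians of 1.16 and 1.73 and sums of 1961 against 808 CPM and 2199 against 1006 CPM. The median labelled FKO was 0.16 with all cells thinned to 4000 UMIs, 0.48 in the divided UMIs and 0.44 without cells that had a collagen or cycling UMI. VIM, the filament protein of progenitors and of reactive cells, was the most abundant at 1639 against 568 CPM (WT) and 1746 against 808 CPM (FKO), and NES, its partner, had ratios of 1.16 and 1.596. The cycling gene MKI67 was at 1.96 against 3.80 CPM in cells labelled WT and at 34.5 against 8.14 CPM in those labelled FKO, where 14 members held it and a single member held 30.7% of its UMIs (ratio 2.08, and 1.59 without that cell). An MKI67 or TOP2A UMI was found in 2.72% of members and 1.71% of comparison cells labelled WT, and in 11.2% and 2.13% of those labelled FKO. The part of these cells in the results was not tested, beyond the comparison without them below.

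Of 8 mesenchymal markers, 1 was measured and higher in members labelled WT (COL3A1, 23.2 against 10.5 CPM, but 19.4 CPM and under the minimum without the member that held 16.9% of its UMIs), with a summed level of 48.0 against 34.7 CPM and 0 UMIs of COL1A1 and PDGFRA. In those labelled FKO 4 of 4 were higher (median 1.93), with 579 against 144 CPM in sum. That median turned to -2.16 where 3 of the 4 genes were asked for and to -1.13 with all cells thinned to 4000 UMIs, and the median labelled WT turned from 1.14 to -0.21 with at most 5% mitochondrial UMIs. COL1A1, the most abundant in cells labelled FKO, was at 221 against 39.5 CPM. Its UMIs came from 22 members, a single one of which held 27.4%. It was at 349 CPM in cells just outside the rule with DDIT3 and 1 of the 4 genes, at 303 CPM in the members with 2 and at 5.67 CPM in those with 3. A COL1A1, COL1A2 or COL3A1 UMI was found in 14.7% of members and 5.75% of comparison cells labelled WT, and in 21.7% and 9.05% of those labelled FKO. Without any cell that had a collagen or cycling UMI, a setting chosen after seeing the data, 155 (WT) and 116 (FKO) members were left, with 190 and 377 genes higher and 148 and 189 lower, and the share of members labelled FKO was 1.74%.

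Floor plate markers had 1 measured gene of 9 in members labelled WT, SPON1, which was lower (7.19 against 25.8 CPM, -1.84), and 2 of 3 higher in those labelled FKO (median 1.01, SPON1 at 49.5 against 24.6 CPM). In cells labelled WT SPON1 passed the minimum through comparison cells alone, so the median there had to be negative. With all cells thinned to 4000 UMIs the median labelled FKO turned to -1.51, and without the demand for DDIT3 the median labelled WT was -0.05. The sum was 30.7 against 48.2 CPM (WT) and 133 against 71.8 CPM (FKO). A single member held 40.9% of the SPON1 UMIs labelled WT and another 25.5% of those labelled FKO, and without it the ratios were -2.59 and 0.60. FERD3L and LMX1A (WT) and CORIN and LMX1A (FKO) had 0 UMIs in members. Of 7 glutamatergic and GABAergic markers, SLC17A8 (VGLUT3), a vesicular glutamate transporter that some serotonin neurons use, was the most abundant and was at 258 against 163 CPM in cells labelled WT and 75.5 against 131 CPM in those labelled FKO. The list had 1 of 1 higher (median 0.66, sum 266 against 173 CPM, SLC17A7 and GAD2 at 0, but a median of 0.04 with at most 5% mitochondrial UMIs, of 0.45 without the demand for DDIT3, and of 0.57 without the member with most SLC17A8 UMIs) and 2 of 2 lower (median -0.92, sum 105 against 163 CPM). Their part in the results was not tested.

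Sensory, visceral and motor neuron markers had 0 of 1 gene called in each library, with medians of -0.35 and -0.29. Their sum was 100.02 against 116 CPM (WT) and 175 against 212 CPM (FKO), most of it SCN9A, a sodium channel and the only gene of the list above the minimum. PRPH, the filament protein peripherin, lay under the minimum and went the other way, with a UMI in 2.72% of members and 0.694% of comparison cells labelled WT and in 5.59% and 0.451% of cells labelled FKO (thinned to 2000 UMIs, 0.543% against 0.120% and 1.86% against 0.0985%). PHOX2A, CHAT, TLX3 and DRGX were at 0 in members labelled WT, and these 4 with ISL1 and MNX1 in those labelled FKO. Astrocyte, oligodendrocyte and immune markers had no measured gene in cells labelled WT, with a sum of 27.5 against 28.1 CPM, MBP the most abundant and 7 of 11 genes at 0, among them GFAP, AQP4, SOX10 and PTPRC. In cells labelled FKO 0 of 2 were called, with a sum of 92.2 against 74.6 CPM, S100B the most abundant and GFAP, PTPRC and CD68 at 0. SOX10, a factor of oligodendrocytes and of the neural crest, was found there in 6.83% of members (11 cells, 3.46 to 11.9) and 2.14% of comparison cells, and in 2.48% and 0.887% of cells thinned to 2000 UMIs, and its part in the results was not tested. The median of the list there was 0.01 and had no steady sign, from -1.84 with all cells thinned to 4000 UMIs to 1.13 with at most 5% mitochondrial UMIs, and was -0.05 with depth matched and -0.37 with equal weight per cell. By the highest doublet scores, 14 members labelled WT (7.61%) and 21 labelled FKO (13.0%) were marked, against 9.96% and 7.86% of all kept cells.

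As a share of kept cells, members were at 2.88% (WT, 2.49 to 3.32) and 2.13% (FKO, 1.81 to 2.48). Detection of these low genes depends on depth, which differs between the libraries. With all cells thinned to 4000 UMIs before the rule, it was 0.768% (48 of 6251 cells) and 0.449% (31 of 6897), and the difference between libraries was not tested. Kept cells with fewer UMIs, 134 (WT) and 676 (FKO), are left out of this setting. Asking for 3 of the 4 genes gave 1.13% and 0.647%, and dropping the demand for DDIT3 gave 3.82% and 3.71%. With at most 5% mitochondrial UMIs, 39 members of 360 cells labelled WT (10.8%) and 95 of 3167 labelled FKO (3.0%) were left. These 4 settings, the divided UMIs, the minimum CPM and the fold also moved some counts of higher or lower genes by more than 1.5 times. Equal weight per cell and the removal of doublets did so for the lower genes labelled FKO alone, with 360 and 286 genes in place of 160.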

How the data were processed

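The authors deposited UMI counts per gene and cell barcode, made with Cell Ranger 7.0 on GRCh38 per the submitters' notes and 7.1.0 per the file headers, for 11052 (WT) and 8806 (FKO) barcodes with 123064653 and 70588747 UMIs and 61487 genes. Python 3.11.15 with numpy 2.4.6, scipy 1.17.1, pandas 2.3.3, scanpy 1.11.5, scikit-learn 1.9.0, igraph 0.11.9 and matplotlib 3.10.9 was used, and the procedures were tested on simulated data. Levels are summed UMIs of a group over its total. Log2 ratios have no pseudocount, a count of 0 stands at a floor of 3 counts over the group, and no ratio is given where both groups are at or under it. Intervals are exact 95% intervals (Poisson, Clopper-Pearson, conditional for ratios) and cover counting error only. The members, the markers and the 27 gene lists were chosen with earlier results of these data known. Named genes are the 5 genes of the rule, the markers CALCB, SLC7A11 and PHGDH, the 12 highest and 12 lowest genes with at least 50 CPM in either group in each library and 1 direction in both, and examples of the lists. Names outside this rule, such as the promoter matches and genes held by single cells, were chosen after their values were seen. Neighbours and Leiden clusters came from 2000 variable genes without the genes of the rule and mitochondrial genes, 30 components, 15 neighbours and a resolution of 0.5, per library. Doublets were kept, and in an alternative the highest Scrublet scores, 0.8% per 1000 deposited barcodes, were removed. Other alternatives changed the limits on cells, depth, the rule, weights, scaling, the minimum CPM and the fold.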

Additional observations from a re-analysis of the deposited data

Results flagged for a closer look

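Some ratios of members over comparison cells had opposite directions in the libraries, and these differences were not tested. The median log2 ratio of floor plate markers was -1.84 (WT) and 1.01 (FKO), and it is in the first case the ratio of SPON1, an extracellular protein of the floor plate, which had the same values of -1.84 and 1.01. The median labelled FKO turned to -1.51 with all cells thinned to 4000 UMIs, and the median labelled WT was -0.05 without the demand for DDIT3. The median of glutamatergic and GABAergic markers was 0.66 and -0.92, with SLC17A8 at 0.66 and -0.79, and the median labelled WT was 0.04 with at most 5% mitochondrial UMIs. DIPK2A, a secreted kinase-like protein, had -0.74 and 0.63, and SULF1, a sulfatase of the cell surface, -1.51 and 1.37. SPON1, SLC17A8, DIPK2A and SULF1 are the only genes past 1.5-fold in opposite directions among the 5860 measured in both libraries. In cells labelled WT, SPON1, DIPK2A and SULF1 passed the minimum CPM through comparison cells alone, so their ratios there had to be negative. SLC17A8 lost its call there without the member that held most of its UMIs. Members lay in different clusters in each library. SULF1 (647 against 7.94 CPM in other clusters) and SPON1 (368 against 12.7 CPM) are leading genes of cluster 10 of the library labelled FKO, which held 15.5% of its members and 2.54% of its cells. SLC17A8 leads cluster 4 of the library labelled WT, with 63.6% of its members, and cluster 7 of the library labelled FKO, with 6.21% of its members. The part of the clusters in these ratios was not tested.

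Barcodes left out for their mitochondrial share also held cells that meet the rule. All barcodes with over 10 to 20% mitochondrial UMIs, 2818 labelled WT and 752 labelled FKO, had median depths of 10470.5 and 3149 UMIs. Of these, 70 labelled WT (2.48%) and 13 labelled FKO (1.73%) met the rule. Above 20% it was 3 of 1407 and 0 of 263.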

How the results depend on the processing

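Across the alternatives, 805 of 806 log2 ratios of named genes kept their sign, as did 665 of 688 list medians and 255 of 259 list medians past 1.5-fold. The rule fixes the signs of its 5 genes, and the 12 highest and 12 lowest were picked for 1 direction in both libraries, so these counts are no measure of stability. Named genes stayed inside the interval of the main value in 508 of 806 cases. The medians of regulators, serine and 1-carbon synthesis, serotonergic and presynaptic genes stayed within the interval of their middle gene in 74 of 104 cases, and those of other lists in 452 of 584. Of the medians past 1.5-fold the mesenchymal and floor plate markers turned, as given below. Of the smaller ones, sign changes came in cells labelled WT for mitochondrial chaperones (to -0.24), NRF2 targets (-0.17), ER chaperones (-0.05), p53 targets (-0.05) and neuropeptides (-0.43), and in cells labelled FKO for neuropeptides (0.04), axon injury genes (0.01), hypoxia genes (-0.18), sensory, visceral and motor markers (0.03) and astrocyte, oligodendrocyte and immune markers (-1.84). Counts of higher and lower genes stayed within 1.5 times in 34 of 68 cases, and shares of members within their interval in 9 of 18. Where a value moved, the cause was not tested unless the setting itself gives fewer genes or cells. No paired analysis was possible because each genotype has 1 library. Depth limits the low genes: 3 counts in members are 0.981 (WT) and 1.02 (FKO) CPM.

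With all cells thinned to 4000 UMIs, shares were 0.768% (WT) and 0.449% (FKO), higher genes 1339 and 1895, and lower genes 1298 and 1652. Medians were 1.70 and 1.88 for regulators, 2.95 and 2.37 for serine and 1-carbon synthesis, -0.69 and -1.20 for serotonergic genes, and -0.88 and -0.50 for presynaptic genes. Signs turned for IFITM3 (WT, -1.37), floor plate markers (FKO, -1.51) and mesenchymal markers (FKO, -1.13).

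Asking for 3 of the 4 genes gave shares of 1.13% and 0.647%, higher genes 486 and 772, and lower genes 656 and 591. Regulators had 1.53 and 1.58, serotonergic genes -0.83 and -0.64, and in cells labelled WT serine and 1-carbon synthesis 3.02 and presynaptic genes -0.45. Mesenchymal markers turned to -2.16 (FKO).

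Without the demand for DDIT3, shares were 3.82% and 3.71%, lower genes 88 and 45, higher genes 269 (FKO), and regulators 0.95 and 0.80.

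At most 5% mitochondrial UMIs gave shares of 10.8% and 3.0%, higher genes 579 (WT) and lower genes 1099 and 323. Medians in cells labelled WT were 1.95 for regulators, 2.20 for serine and 1-carbon synthesis and -0.55 for presynaptic genes, and mesenchymal markers turned to -0.21.

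In the divided UMIs, higher genes were 565 and 762 and lower genes 829 and 678. Medians labelled WT were 1.52 for regulators, 2.74 for serine and 1-carbon synthesis, -0.74 for serotonergic and -0.59 for presynaptic genes, and presynaptic genes labelled FKO had -0.40.

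Equal weight per cell gave 360 lower genes (FKO), 1.35 and 1.39 for regulators, 2.77 for serine and 1-carbon synthesis (WT) and -0.35 for presynaptic genes (FKO). Doublets removed gave 286 lower genes (FKO). Cells with a TPH2 UMI gave 0.79 for regulators (FKO) and -0.35 for serotonergic genes (WT).

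A fold of 2 left 103 and 175 higher and 19 and 10 lower genes. A minimum of 50 CPM left 99 and 171 higher and 76 and 71 lower. No minimum gave 4033 and 4829 higher and 1802 and 2112 lower. A minimum of 20 CPM over all kept cells, chosen after seeing the data, gave 111 and 243 higher. Without collagen or cycling UMIs, also chosen after seeing the data, the share labelled FKO was 1.74%.

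At least 2000 UMIs, at most 20% mitochondrial UMIs, matched depth and the median gene at 1 moved none of the shares, counts or medians of those 4 lists past those limits.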
